A study of Mus musculus with 6 samples.

Results

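The genes described are the 10 that encode the layered scaffold of the postsynaptic density: Dlg2, Dlg3 and Dlg4, Dlgap1 to Dlgap4, and Shank1 to Shank3. They were chosen by symbol, with no measured value in the rule, out of 55421 genes in each deposited table, and all 10 passed the minimum of 10 counts over the 6 libraries. The cerebral cortex of wild-type male C57BL/6J mice was sequenced at 6 months (mice 10, 11 and 17) and at 24 months (mice 2, 4 and 5). All mice had been fed a standard diet and received isoflurane before cervical dislocation, so both ages share the anaesthetic. Each library came from 1 mouse and was made from 10 ng of total RNA of whole cortex. The question addressed is how the mRNA of this scaffold differs between the young and the old adult cortex.

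The postsynaptic density is the protein-rich layer under the membrane of an excitatory synapse. Proteins of the Dlg family, among them PSD-95 (the product of Dlg4), carry PDZ domains that hold glutamate receptors and adhesion molecules at the membrane. Their guanylate kinase domain binds the Dlgap proteins, also called SAPAP or GKAP, and these bind the PDZ domain of Shank proteins. Shank proteins in turn bind Homer and actin regulators, so that the 3 families form a chain from the receptors at the surface to the actin of the spine.

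Depth and the number of genes detected separated the ages. The 6-month libraries held 33493082 to 36494240 counts with 33974 to 35651 genes detected, and the 24-month libraries held 29495379 to 32813159 counts with 40208 to 43561 genes detected. The part of this difference in the members' values was not tested. Counts were scaled with the TMM factors of edgeR and are given as CPM, the count scaled to library depth. TPM, which also divides by gene length, was used as deposited and carries no TMM factor. It is given where levels of different genes are compared, and beside CPM for some members. Because the units are scaled differently, ages can overlap in CPM and not in TPM, or the reverse. Log2 fold changes are for 24 against 6 months, with the adjusted p of edgeR's quasi-likelihood test over 32905 genes, and a gene is called at an FDR of 10%. The SE beside a log2 fold change was derived from that test, as its absolute value divided by the square root of the F statistic. TMM scaling placed the median log2 fold change at 0.15 over all genes tested and at -0.14 over the 15761 genes of at least 1 CPM. Library totals moved these medians to 0.34 and 0.05. The library of the 6-month mouse 10 stood apart: 119 of the 15761 genes had there less than 1/2 of the next lowest library's CPM, against 1 to 43 genes in each of the other libraries. Shank1 was one of the 119. The defining markers of cortical neurons were present in each library, with Rbfox3 at 299.7 to 374 CPM and Slc17a7, the vesicular glutamate transporter of cortical excitatory neurons, at 206 to 246 CPM.

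Promoters are shown for the Dlgap genes because this family held the members called between the ages and members that were not. The windows run from 250 bases before to 50 bases after a RefSeq transcription start on GRCm38.p6, all on the plus strand. Capitals mark the GC box, searched as GGGCGG on both strands, the core of the Sp1 site. The first pair of sequences belongs to Dlgap1, which was called lower, and its starts lie 592674 bases apart.

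Dlgap1, chr17:69968823-69969122: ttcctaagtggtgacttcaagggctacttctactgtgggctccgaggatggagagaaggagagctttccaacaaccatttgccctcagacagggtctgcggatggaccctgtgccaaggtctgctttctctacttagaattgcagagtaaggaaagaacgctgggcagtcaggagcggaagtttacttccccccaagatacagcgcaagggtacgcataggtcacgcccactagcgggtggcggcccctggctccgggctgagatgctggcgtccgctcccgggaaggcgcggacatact

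Dlgap1, chr17:70561497-70561796: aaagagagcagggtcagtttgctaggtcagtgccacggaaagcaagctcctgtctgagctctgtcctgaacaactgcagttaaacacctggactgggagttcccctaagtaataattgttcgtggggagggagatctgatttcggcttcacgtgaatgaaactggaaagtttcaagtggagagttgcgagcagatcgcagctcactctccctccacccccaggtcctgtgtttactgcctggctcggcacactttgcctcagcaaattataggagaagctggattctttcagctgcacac

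Dlgap3, chr4:127172630-127172929: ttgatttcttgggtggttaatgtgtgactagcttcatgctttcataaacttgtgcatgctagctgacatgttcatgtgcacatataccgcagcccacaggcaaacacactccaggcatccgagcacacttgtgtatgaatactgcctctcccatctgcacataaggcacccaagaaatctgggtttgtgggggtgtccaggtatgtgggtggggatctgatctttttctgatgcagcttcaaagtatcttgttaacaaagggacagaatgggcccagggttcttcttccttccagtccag

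Dlgap4, chr2:156720715-156721014: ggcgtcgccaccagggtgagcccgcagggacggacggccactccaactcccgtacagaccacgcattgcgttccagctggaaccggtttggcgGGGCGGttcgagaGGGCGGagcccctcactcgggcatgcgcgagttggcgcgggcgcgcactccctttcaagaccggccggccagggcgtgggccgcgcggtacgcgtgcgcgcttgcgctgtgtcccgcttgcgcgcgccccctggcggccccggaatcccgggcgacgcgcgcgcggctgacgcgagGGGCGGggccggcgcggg

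The Dlgap4 window held 3 matches and 76.3% G and C, and the other windows held 0 matches and 47.7 to 57.7% G and C. Of all 32817 promoter windows, 35.6% held the GC box. Neither the cyclic AMP response element (TGACGTCA, in 1.79% of windows) nor the Egr site (GCGTGGGCG, in 0.612%) was found in these windows on either strand. Outside the Dlgap family, the window of Shank3 held 4 GC boxes, 1 Egr site and 81.0% G and C. A Dlg4 window held 2 GC boxes, a Dlg3 window held 1, and the remaining Dlg windows, with all those of Dlg2, held 0. The promoter table had entries for 7 of the 10 genes, all but Dlgap2, Shank1 and Shank2.

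Across the members, Dlgap1 and Dlgap2 were called lower at 24 months, and no other member was called. That is 2 of 10 called lower, near the share among genes of at least 1 CPM. The same rule called 8.33% of all genes tested lower and 17.3% of the genes of at least 1 CPM. Called higher were 0 of 10, where the rule called 10.0% and 2.43%. With library totals the rule called 318 of 4439 genes lower, against 2741 of 6040 with TMM scaling. At the 1% FDR named by the study 0 members passed in edgeR's quasi-likelihood, likelihood ratio and exact tests or in DESeq2. Of all genes, 0 passed in the quasi-likelihood test (0.0%), 1703 in the likelihood ratio test, 1122 in the exact test and 227 in DESeq2. At an unadjusted p under 0.05 there were 3 members, where 30.7% of all genes had such a p, and the likelihood ratio test and DESeq2 each called 1 member, lower, at 10% FDR. These tests called 0 members higher, where they called 16.1% and 4.93% of genes higher. The median log2 fold change of the members was 0.00, and 5 lay below and 5 above 0. Relative to the median of the genes of at least 1 CPM, 3 members lay below and 7 above. In CPM, 2 members had all 24-month mice below all 6-month mice (16.3% of all genes, 32.5% of those of at least 1 CPM), and 0 had them all above (20.0% and 5.32%).

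**Figure D1:**
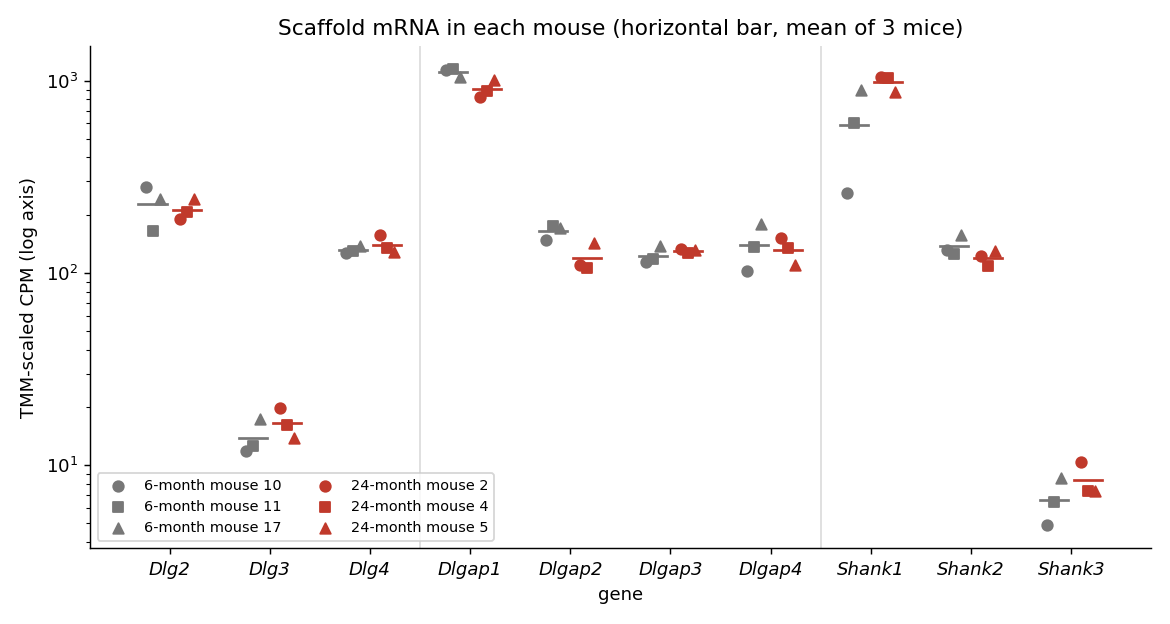
CPM after TMM scaling (log axis) of each scaffold gene in each mouse, grey for 6 months and red for 24 months, with the mean of the 3 mice as a bar. Dlgap1 and Dlgap2 are the genes whose ages do not overlap, and Shank1 spans 262 to 899 CPM among the 6-month mice.

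Of the Dlg family, no member differed between the ages beyond the spread of the mice. Dlg4, on chromosome 11 (70016942-70047522, plus strand), encodes PSD-95, the most studied scaffold of the excitatory synapse. Its level was 128, 131 and 139 CPM in the 6-month mice 10, 11 and 17 and 157, 135 and 128 CPM in the 24-month mice 2, 4 and 5. The ages overlapped, and the log2 fold change was 0.08 (SE 0.10, adjusted p = 0.596). Dlg2 (chromosome 7, 90476672-92449247, plus strand) encodes PSD-93 and is the longest of the 10 genes, spanning 1972576 bases for 16280 exonic bases.

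Dlg2 stood at 280.0, 165 and 242 CPM at 6 months and at 191, 207 and 243 CPM at 24 months. Both the highest and the lowest mouse were 6-month mice, and the 1.70-fold range among them was exceeded by 10.2% of the genes of at least 1 CPM. The log2 fold change was -0.10 (SE 0.18, adjusted p = 0.730), and its sign turned with library totals (0.09) and without mouse 10 (0.08). Dlg3, the X-linked member that encodes SAP102 (X chromosome, 100767722-100818410, plus strand), had 11.8, 12.6 and 17.4 CPM at 6 months and 19.8, 16.1 and 13.8 CPM at 24 months. Its log2 fold change was 0.25 (SE 0.18, adjusted p = 0.365).

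In the Dlgap family, the ages separated for Dlgap1 and Dlgap2 and overlapped for Dlgap3 and Dlgap4. Dlgap1 (chromosome 17, 69969073-70821413, plus strand) encodes SAPAP1, the founding GKAP protein. It had 1137, 1155 and 1046 CPM at 6 months and 823, 887 and 1004 CPM at 24 months. Each 24-month mouse lay below each 6-month mouse. The log2 fold change was -0.30 (SE 0.098, adjusted p = 0.0846), which is 0.813 times the 6-month level. The 105 genes within 0.5 log2 CPM of its level had a median log2 fold change of -0.24. The paper names Dlgap1 among the proteins enriched in the old cortex. It describes the mRNA of genes whose proteins differed as stable. The values here are of mRNA only.

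Dlgap2 (chromosome 8, 14095865-14847680, plus strand), which encodes SAPAP2, had 149, 176 and 172 CPM at 6 months and 110.2, 107 and 143 CPM at 24 months. The ages were separate, with mouse 5 nearest to the 6-month mice. The log2 fold change was -0.47 (SE 0.13, adjusted p = 0.0621), the lowest of the 10 and 0.723 times the 6-month level. For the 1238 genes within 0.5 log2 CPM of its level the median was -0.23. Dlgap2 was also the member called by the likelihood ratio test (adjusted p = 0.0337, where the test called 6.67% of genes lower) and by DESeq2 (adjusted p = 0.0533, where it called 6.29% lower).

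Both calls depended on the libraries entered and on the scaling. They held without the 24-month mouse 5, where 3634 of 31275 genes were called lower. When any one of the other 5 mice was left out, 0 members were called lower. There the adjusted p of Dlgap2 lay between 0.118 and 0.220 and that of Dlgap1 between 0.115 and 0.363. The sign of both stayed negative in all these fits. Library totals gave a log2 fold change of -0.28 for Dlgap2 and -0.11 for Dlgap1, with adjusted p = 0.161 and 0.423. In TPM the ages of both genes overlapped.

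Dlgap3 (chromosome 4, 127169204-127237022, plus strand) encodes SAPAP3, whose loss in mice causes compulsive grooming. It had 114, 118 and 138 CPM at 6 months and 133, 128 and 132 CPM at 24 months, with a log2 fold change of 0.09 (SE 0.097, adjusted p = 0.569). In TPM the 24-month mice (112, 107.5 and 111) lay just above the 6-month mice (88.2, 92.5 and 107.2), while in CPM the ages overlapped. How many of all genes separate in this way in TPM was not counted. Dlgap4 (chromosome 2, 156613705-156764363, plus strand), which encodes SAPAP4, had 102, 136 and 180.0 CPM at 6 months and 152, 135 and 109 CPM at 24 months. The 6-month mice spanned the 24-month mice, and the log2 fold change of -0.08 (SE 0.19, adjusted p = 0.799) turned positive with library totals (0.11).

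Shank1 had the largest difference in means of the 10 genes, but it did not pass the test. Shank1 (chromosome 7, 44310253-44360572, plus strand) encodes the deepest layer of the scaffold, which links Dlgap proteins to Homer. Its CPM was 262, 601 and 899 in the 6-month mice 10, 11 and 17 and 1052, 1032 and 876 in the 24-month mice 2, 4 and 5. The 24-month mice lay close together, the 6-month mice far apart, and the highest 6-month mouse lay above the lowest 24-month mouse. In TPM, which carries no TMM factor, the ages did not overlap, with 87.2, 202 and 301 against 381, 374 and 317. The share of all genes that separate in TPM was not counted. In CPM, 5.32% of the genes of at least 1 CPM had all 24-month mice above all 6-month mice. The log2 fold change was 0.75 (SE 0.33, adjusted p = 0.159, unadjusted p = 0.0482).

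These values rest on 8085 to 35708 counts of Shank1 in each library. Among the 6-month mice the highest was 3.43 times the lowest, a range exceeded by 172 of the 15761 genes of at least 1 CPM (1.09%), where the median gene had 1.18. Among the 24-month mice the range was 1.20-fold, where the median gene had 1.24. Without mouse 10 the log2 fold change of Shank1 was 0.40 (adjusted p = 0.195), and without mouse 17 it was 1.19 (adjusted p = 0.0922), past the 10% threshold. The fit without mouse 17 called 2476 of 32090 genes, 1252 of them lower. Exons of Shank1 share 339 bases with 1700008O03Rik on the other strand, which had 289 counts beside 157889 for Shank1.

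Shank2 (chromosome 7, 144001928-144424494, plus strand) had 131, 126 and 158 CPM at 6 months and 123, 108 and 129 CPM at 24 months. The ages overlapped, with a log2 fold change of -0.20 (SE 0.11, adjusted p = 0.246), which was -0.01 with library totals and 0.09 when libraries were scaled to the neuronal markers. Shank3 (chromosome 15, 89499623-89560261, plus strand) is the member whose loss in humans is linked to Phelan-McDermid syndrome. It was the lowest in level, with 4.87, 6.40 and 8.55 CPM at 6 months and 10.4, 7.34 and 7.38 CPM at 24 months, from 150 to 336 counts in each library. The log2 fold change was 0.34 (SE 0.22, adjusted p = 0.316). Exons of Shank3 share 271 bases with the antisense gene Gm15609, which had 515 counts against 1492 for Shank3 over the 6 libraries, and counting did not use strand.

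**Figure D2:**
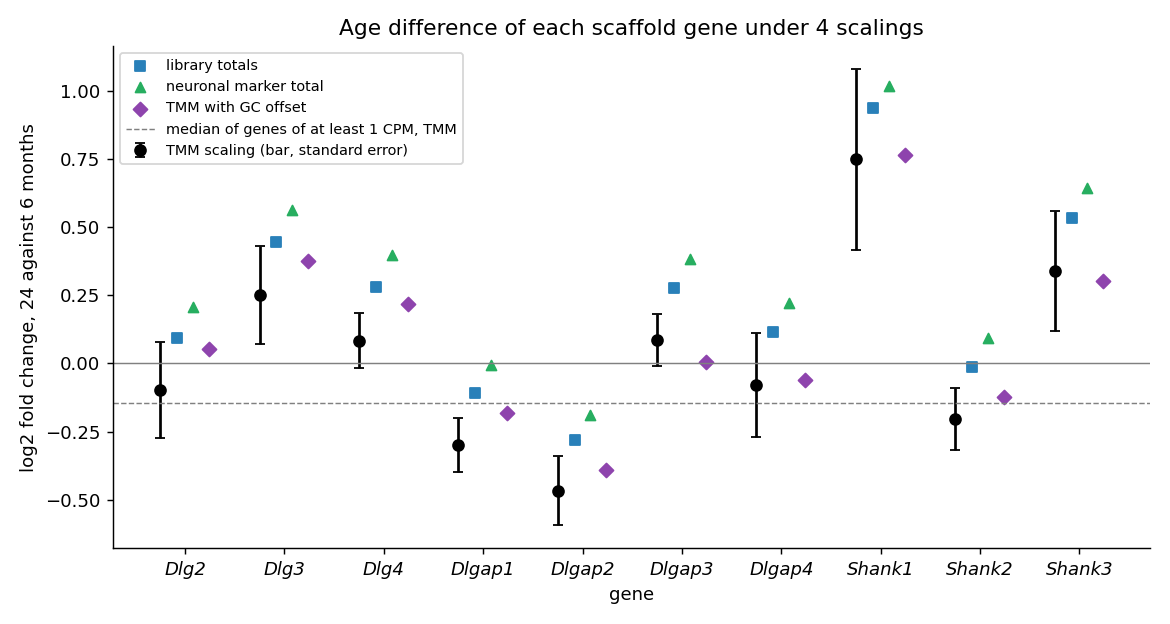
Log2 fold change of each gene, 24 against 6 months, with TMM scaling (black, bar for the standard error) and 3 other scalings, and the median of genes of at least 1 CPM as a dashed line. Dlgap1 and Dlgap2 lie below 0 and Dlg3, Dlg4, Dlgap3, Shank1 and Shank3 above 0 in all 4 scalings, while Dlg2, Dlgap4 and Shank2 change sign with the scaling.

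Over all genes of at least 1 CPM, the median log2 fold change was nearest to 0 in the genes richest in G and C, and the members differed in this content. The longest transcript held 63.9% G and C for Dlgap3, 62.4% for Shank3, 61.4% for Shank1 and 59.4% for Dlgap4, all in the highest of 10 equal classes of genes by this content. That class had a median log2 fold change of -0.04, against -0.21 in the class of Dlg2, at 44.3%. With an offset for G and C content the log2 fold change was 0.76 for Shank1, -0.39 for Dlgap2 and -0.18 for Dlgap1 (adjusted p = 0.108, 0.0942 and 0.257).

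Per length, Shank1 and Dlgap1 were the most abundant of the 10 mRNAs. Mean TPM over the 6 libraries was 277.0 for Shank1 (87.2 to 381) and 205.7 for Dlgap1 (175 to 228), and these ranges overlapped. Next came Dlgap3 at 103.1, Dlgap2 at 84.5, Dlgap4 at 58.8, Dlg2 at 45.2, Shank2 at 43.8 and Dlg4 at 37.7 TPM. Dlg3 followed at 9.60 and Shank3 at 2.98 TPM. Neighbours in this order had separate ranges at only 3 places, between Dlgap1 and Dlgap3, between Dlg4 and Dlg3, and between Dlg3 and Shank3. By mean TPM, Dlgap1 ranked first and Shank1 second at 6 months, and Shank1 ranked first at 24 months.

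The makeup of each family was compared as the share of its summed TPM, which needs no scaling between libraries. Shares can still carry a difference between libraries by G and C content, which varied within families. It was 61.4% for Shank1, 55.0% for Shank2 and 62.4% for Shank3. In the Dlgap family it was 50.9%, 55.3%, 63.9% and 59.4% for Dlgap1 to Dlgap4. The part of this content in the shares was not tested. Shank1 made up 66.2%, 82.2% and 84.6% of the Shank family in the 6-month mice 10, 11 and 17 and 88.9%, 90.0% and 86.7% in the 24-month mice 2, 4 and 5. The ages did not overlap, at 77.7% ± 9.98 and 88.5% ± 1.72 (SD, n = 3 each; two-sided exact permutation p = 0.1, the smallest possible with 3 mice at each age; adjusted p = 0.25 over 10 shares). The share of Shank2 was the counterpart, at 32.4%, 16.8% and 14.5% against 10.1%, 9.23% and 12.5%. Mouse 10 supplied the lowest Shank1 share, and without it the difference in that share was 5.13 in place of 10.9 percentage points.

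In the Dlgap family, Dlgap2 stood at 20.2% ± 0.904 of the family TPM at 6 months and 16.9% ± 1.89 at 24 months, and Dlgap3 stood at 20.5% ± 1.38 and 25.3% ± 1.25 (SD, n = 3). The ages did not overlap for either share, with the same smallest p = 0.1 of the exact permutation test and adjusted p = 0.25. The shares of Dlgap1, Dlgap4 and the 3 Dlg genes overlapped between the ages, as did that of Shank3. Of the summed TPM of Dlg2, Dlg3 and Dlg4, Dlg2 and Dlg4 together made up most in each library, with Dlg2 at 41.2 to 57.3% and Dlg4 at 35.3 to 46.4%. Dlg1, listed below with the other PDZ scaffolds, was not in this sum. Its mean TPM was 13.2 at 6 months and 13.3 at 24 months, beside 8.39 and 10.8 for Dlg3.

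**Figure D3:**
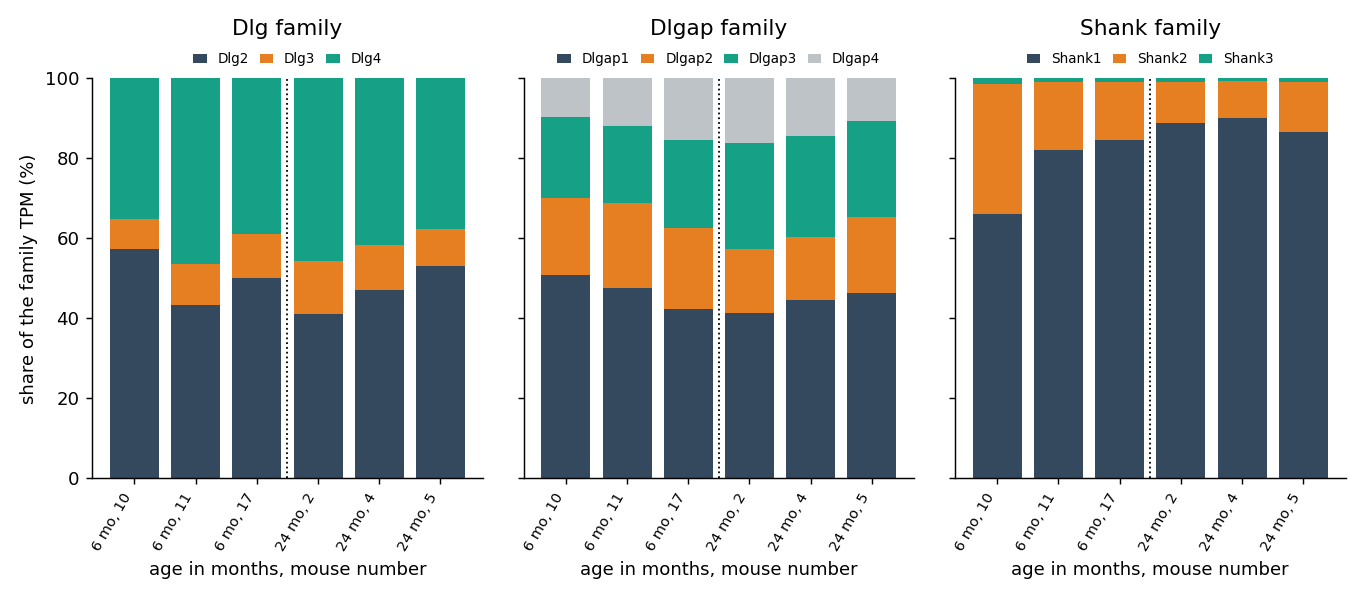
Share of each gene in the summed TPM of the listed genes of its family (%), in 6 stacked bars per family, 1 for each mouse. The 6-month mice lie left of the dotted line, and Dlg1 is not included. Shank1 takes 66.2 to 84.6% of the Shank family at 6 months and 86.7 to 90.0% at 24 months.

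Between families, summed Shank TPM was 132, 246 and 356 at 6 months and 429, 415 and 366 at 24 months, without overlap. Shank1 made up 66.2 to 90.0% of this sum, so it largely repeats the result of Shank1 in TPM. In TMM-scaled CPM the ages of Shank1, Shank2 and Shank3 each overlapped. The ratio of Shank to Dlgap TPM was 0.515 ± 0.215 and 0.928 ± 0.119, and that of Shank to Dlg was 2.80 ± 1.25 and 4.18 ± 0.374 (SD, n = 3 each). Neither ratio overlapped between the ages, although that of Shank to Dlg rounded to 3.75 in both the highest 6-month and the lowest 24-month mouse, with p = 0.1 for both in the exact permutation test (adjusted p = 0.15 over 3 ratios). The ratio of Dlgap to Dlg was 5.36 ± 0.923 and 4.52 ± 0.221 and overlapped (exact permutation test, p = 0.2, adjusted p = 0.2). In these ratios Dlg is the sum of Dlg2, Dlg3 and Dlg4, without Dlg1. Without mouse 10 the difference in the ratio of Shank to Dlg was 0.663 in place of 1.37.

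For the most abundant member of each family, the genes of nearest profile over the 6 libraries were found by the root mean square difference of centred log2 CPM. Pgrmc2 (0.135), Dnm1 (0.145) and Zfp628 (0.155) were nearest to Shank1, and 36 of 15751 genes lay within 0.25. Dnm1, which encodes the GTPase dynamin 1 of synaptic vesicle endocytosis, had 202, 534 and 970 CPM at 6 months and 913, 906 and 741 CPM at 24 months. These genes were chosen for likeness to Shank1 over the same libraries, so the low value of mouse 10 that they share with it follows from the choice.

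Tom1l2, Rnf141 and Xrn2 were nearest to Dlgap1, but 10648 genes lay within 0.25 of it. Tbc1d32, Atf6 and Gm20300 were nearest to Dlg2, with 3706 genes within 0.25. All profiles come from the same 6 libraries and share their depth and scaling.

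**Figure D4:**
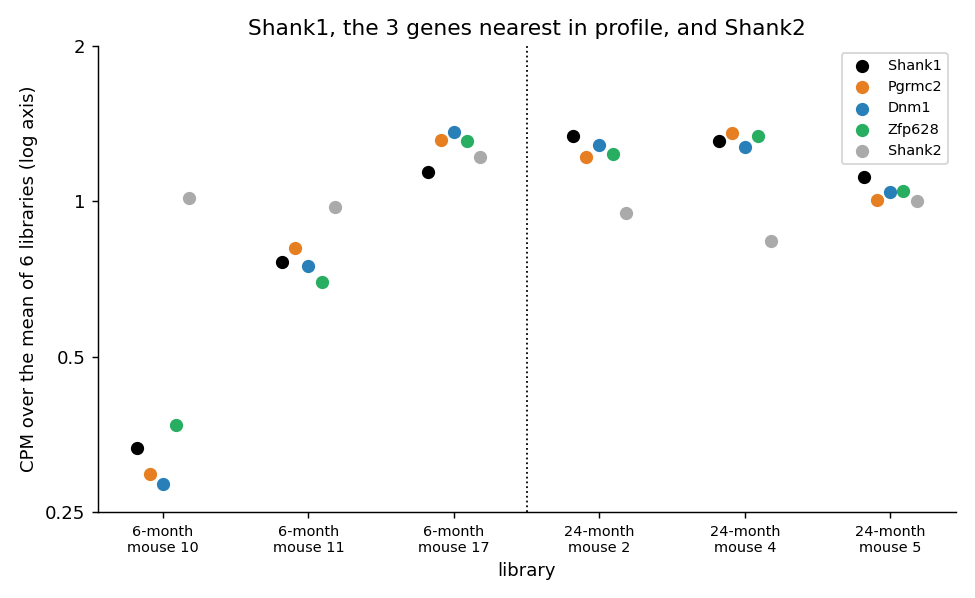
CPM of Shank1, of the 3 genes nearest to it in profile and of Shank2 in each library, divided by the gene's mean over the 6 libraries (log axis), with 6-month mice left of the dotted line. Shank1 lies lowest in mouse 10, as do Pgrmc2, Dnm1 and Zfp628, which were chosen for likeness to it over these libraries. Shank2 lies near its mean there.

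Another 49 genes were listed, the partners of this scaffold together with Dlg5 and Dlgap5, relatives of the members. Of these, 16, all of them partners, were called lower at 10% FDR in the quasi-likelihood test, 2 (Homer3 and Dlgap5) were called higher, and 0 passed 1%. The background for the lower calls is the same 8.33% of all genes and 17.3% of those of at least 1 CPM. Of the adhesion partners of PSD-95, 6 of 15 were called lower (median log2 fold change -0.28). Lrrtm3 and Lrrtm1, which encode leucine-rich adhesion proteins that bind neurexins across the cleft, had the lowest p, with log2 fold changes of -0.40 (SE 0.088, adjusted p = 0.0526) and -0.50 (SE 0.12, adjusted p = 0.0552).

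Of the other PDZ scaffolds, 4 of 13 were called lower and all 13 had a negative log2 fold change. Their median, -0.14, was the same as that of all genes of at least 1 CPM. Lin7c (-0.37, SE 0.10, adjusted p = 0.0624) and Grip1, an AMPA receptor scaffold (-0.43, SE 0.13, adjusted p = 0.0737), had the lowest p. Of the signalling proteins bound to PSD-95, 3 of 12 were called lower (median -0.18), with Cnksr2 at -0.30 (SE 0.082, adjusted p = 0.0624) and Prr7 at -0.41 (SE 0.13, adjusted p = 0.081).

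Of 7 partners of Shank proteins, 3 were called lower and 1 higher (median -0.16). Baiap2 and Abi1, which encode the actin regulators IRSp53 and Abi1, had the lowest p, with log2 fold changes of -0.41 (SE 0.11, adjusted p = 0.0616) and -0.35 (SE 0.095, adjusted p = 0.0631). The gene called higher was Homer3, named here after its values were seen, at 0.50 (SE 0.16, adjusted p = 0.0785). Of the relatives, Dlgap5, a mitotic spindle gene, was called higher at 1.05 (SE 0.32, adjusted p = 0.0724) from at most 0.771 CPM in any library. Dlg5 was at -0.20 (SE 0.16, adjusted p = 0.411).

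These calls also depended on single mice: 0 of the 49 genes were called lower without mouse 10, 11 or 4, 1 without mouse 2, 6 without mouse 17 and 18 without mouse 5. With library totals 1 was called lower and 4 higher. The list medians were then 0.04 for PDZ scaffolds, 0.04 for Shank partners, 0.01 for signalling proteins and -0.08 for adhesion partners. That of all genes of at least 1 CPM was 0.05.

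Of 10 neuronal markers 3 were called lower, where the rule called 17.3% of the genes of at least 1 CPM. Their median log2 fold change was -0.21, beside -0.14 for those genes, and was -0.03 with library totals. Their summed level was 9562 to 11474 CPM at 6 months and 7173 to 9541 CPM at 24 months. Of 6 markers of excitatory neurons 3 were called lower (median -0.30), with summed levels of 2993 to 3226 and 2396 to 2726 CPM. Camk2a, one of those called, had a mean of 2314 CPM at 6 months within this sum. Not called were Slc17a7 (-0.06, adjusted p = 0.703), Neurod2 (-0.10, adjusted p = 0.557) and Tbr1 (-0.40, adjusted p = 0.146), and their ages overlapped. Over all marker lists 7 genes were called lower, and this was 1 with library totals, 0 without mouse 2, 4, 10 or 11, 3 without mouse 17 and 16 without mouse 5. In RNA of whole cortex, fewer neurons and less RNA per neuron cannot be told apart. Libraries were also scaled to the summed counts of the neuronal markers. In this sum Snap25 (mean 5161 CPM at 6 months) and Syt1 (2165 CPM) were the highest. Their log2 fold changes were -0.31 and -0.40, and 9 of the 10 markers lay below 0, with Syp at 0.33. With this scaling Dlgap1 was at -0.01 (adjusted p = 0.977), Dlgap2 at -0.19 (adjusted p = 0.460) and Shank1 at 1.02 (adjusted p = 0.073). This fit called 4360 of 32905 genes, 29 of them lower. The median of the members was 0.30 beside 0.16 for the genes of at least 1 CPM.

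Of the 6 markers of inhibitory neurons 0 were called (median -0.18; 787 to 836 against 579 to 797 CPM). Of 6 astrocyte markers 1 was called, higher (3122 to 3403 against 3100 to 3536 CPM), and of 6 microglia markers 1 was called in each direction (427 to 428 against 399 to 439 CPM). Oligodendrocyte markers were not called (0 of 6), but their summed level ran from 1259 to 4052 CPM among the 24-month mice, lowest in mouse 2, against 2368 to 3716 CPM at 6 months. Markers of endothelial cells (88.2 to 166 CPM over both ages), red blood cells (54.6 to 92.7), choroid plexus (16.3 to 43.2) and meninges (28.9 to 76.0) gave 0 calls, and no list had its defining marker at 0. The part of these cell types in the members' values was not tested.

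**Figure D5:**
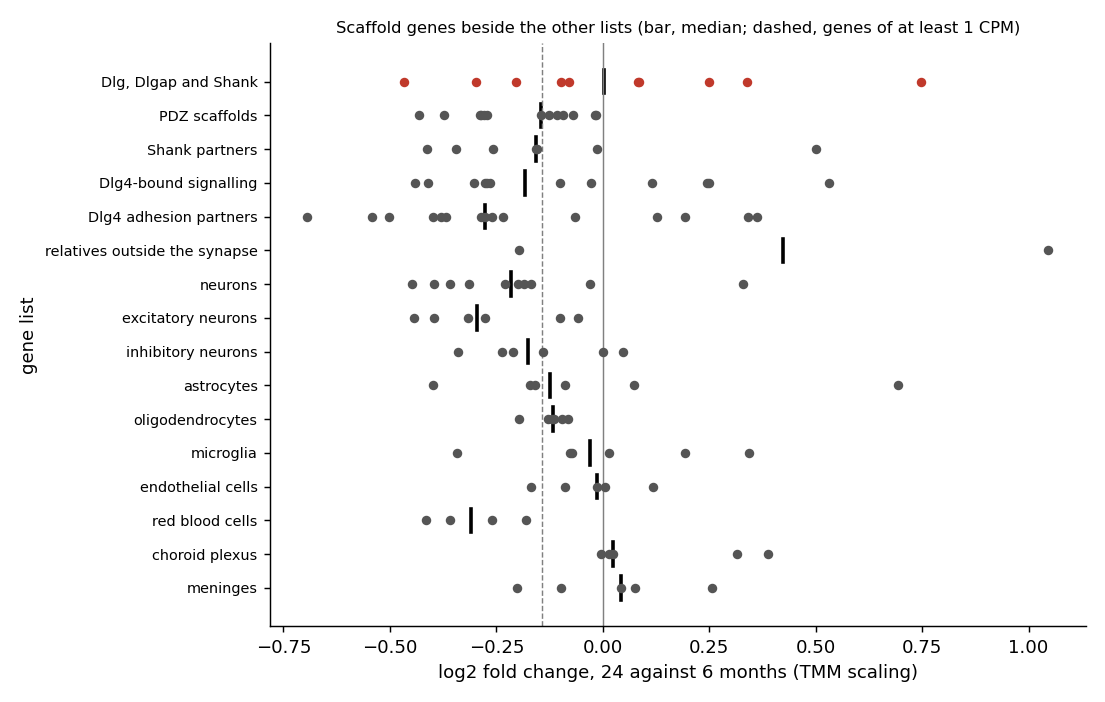
Log2 fold change, 24 against 6 months, of each gene in each list with TMM scaling (points), the list's median (bar), and the median of genes of at least 1 CPM (dashed line at -0.14). The members run from -0.47 for Dlgap2 to 0.75 for Shank1 with a median of 0.00, and the excitatory neuron markers have a median of -0.30. The list labelled as relatives outside the synapse holds Dlg5 and Dlgap5, and where they act was not tested.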

How the data were processed

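Cortex of 3 male mice of each age was sequenced with a low-input kit. The authors trimmed reads with Trim Galore 0.6.4, mapped them with STAR 2.7.3a to GRCm38 with GENCODE vM23, and counted them on exons with featureCounts (Subread 2.0.0), with multi-mapping reads kept and set to count as fractions. The deposited counts are nevertheless whole numbers per gene and mouse, so how such reads entered them is not known, and the TPM values, also deposited, were derived from them by the authors.

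The count and TPM rows were joined by position, which was checked: for 99.2% of genes over 200 counts the implied length lay within 5% of the exonic length in GENCODE vM21, the annotation used here for positions. Counts were scaled by TMM and tested with the quasi-likelihood test of edgeR 4.0.16 in R 4.3.3, with Benjamini-Hochberg adjustment over 32905 genes. The study named edgeR and 1% FDR, but no test within edgeR. Calls here are at 10% because no gene passed 1% in the quasi-likelihood test. Shares and ratios of TPM were compared by exact permutation tests (scipy 1.17.1). Profiles used log2(CPM + 0.5). Alternatives were DESeq2 1.42.0, edgeR's exact and likelihood ratio tests, other scalings, filters and a length offset, and leaving out each mouse. Offsets for G and C content, alone or with length, were added after the data were seen. Replicates are separate mice.

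The members and lists were chosen with earlier results of these data known. Named are all members, the 2 genes of lowest p in each list of partners, defining markers, and the 3 genes nearest in profile to the most abundant member of each family. Homer3, Snap25, Syt1, Syp, Camk2a, Neurod2 and Tbr1 were named after their values were seen.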

Additional observations from a re-analysis of the deposited data

How the results depend on the processing

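Both the calls and some of the values depended on the processing. Members called lower at 10% FDR numbered 2, and this was 1 with DESeq2's test, its size factors, the exact test, the likelihood ratio test, no filter or the offset for G and C content, and 0 with library totals, TMM over genes of at least 1 CPM, filterByExpr, the length offset, the offset for G and C content and length, or scaling to neuronal markers. Leaving out 1 mouse gave 0 to 2. Members called higher were 1 with neuronal scaling (Shank1), where 4360 of 32905 genes were called, 29 of them lower. With a mouse left out they were 0 to 1. The 1 was Shank1 without mouse 17, where 2476 of 32090 genes were called, 1252 of them lower. The median of the members was 0.16 with TMM over genes of at least 1 CPM, 0.15 with the length offset, 0.20 with library totals and 0.30 with neuronal scaling. Members lower in every 24-month mouse were 1 with the offset for G and C content, 0 with TMM over genes of at least 1 CPM, filterByExpr, library totals or neuronal scaling, and 1 to 3 with a mouse left out. Of the 49 partners and relatives, those called lower (16) were 1 with filterByExpr or library totals and 0 to 18 with a mouse left out, and those called higher (2) were 4 with library totals and 0 to 2 with a mouse left out. Marker genes called lower, 7 in all, were 1 with filterByExpr or library totals and 0 to 16 with a mouse left out, and those called higher, 2 in all, were 1 with filterByExpr and 0 to 2.

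The sign of Dlg2 turned with the offset for G and C content (0.054), that with length (0.041), TMM over genes of at least 1 CPM (0.056), filterByExpr (0.014), the length offset (0.0049), library totals (0.094) and neuronal scaling (0.21), and ranged from -0.25 to 0.078 with a mouse left out. That of Dlgap4 turned with the offset for G and C content and length (0.0069), TMM over genes of at least 1 CPM (0.081), filterByExpr (0.039), the length offset (0.098), library totals (0.11) and neuronal scaling (0.22), and ranged from -0.26 to 0.15 (positive without 24-month mouse 5, 0.043, or 6-month mouse 17). Shank2 turned with neuronal scaling (0.092). The difference in share ranged from -6.59 to 0.38 percentage points for Dlg2 and from -0.95 to 4.63 for Dlg4 with a mouse left out, positive for Dlg2 (0.38) and negative for Dlg4 (-0.95) without 6-month mouse 10, and negative for Dlg4 (-0.52) without 24-month mouse 2. The cause was not tested. Dlgap1, Dlgap2, Shank1, Shank3, Dlg3, Dlg4 and Dlgap3 kept their sign in all these fits. Some values came close to 0: Dlg4 without 24-month mouse 2 (0.0027), Dlgap3 with the offset for G and C content (0.0038) and Dlgap1 with neuronal scaling (-0.0072). Over all genes, 6040 calls became 0 without 6-month mouse 10 or 24-month mouse 4 and 7998 without 24-month mouse 5. No paired analysis was possible because the ages share no mouse numbers. With 3 mice per age the permutation tests cannot go below 0.1.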
